A study of Mus musculus with 72 samples.

Results

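The 100 features described here had lower RNA counts in both LRE and KO than in WT in mouse white fat, labelled eWAT. A feature is 1 row of the deposited count table. From the 32377 rows, 8485 had a count in at least 40 of the 60 libraries collected outside zeitgeber time (ZT) 16, and the 100 members were taken from these 8485. Counts were scaled to counts per 1000000 counts of the library (CPM), and the median of log2(CPM + 10) was taken over the 20 libraries of each genotype outside ZT16. Members were chosen by these medians, as the 100 features with the largest value of the WT median minus the higher of the KO and LRE medians, and they are numbered in that order. The rows carry no gene identifier. The members therefore have no gene name, sequence or known function here, and member 1 (row 21636) and member 2 (row 1348) are the only ones also given by their place in the table.

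BMAL1 is a transcription factor that pairs with CLOCK, binds E-box elements and drives the genes of the PER and CRY repressors, which then feed back on the pair. This loop gives daily rhythms of transcription in most tissues, white fat among them, where lipid storage, lipolysis and hormone secretion vary over the day. Rhythms in fat also follow signals from other organs and from feeding, and loss of BMAL1 removes the tissue clock and can shift the mean level of genes as well as their rhythm.

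The series compared 3 genotypes: WT, KO (a full-body Bmal1 knockout per the labels) and LRE, which the labels do not expand. Fat was collected at ZT 0, 4, 8, 12, 16 and 20 h, with 4 libraries per genotype and time and 72 in all. The sources used here give no strain, age, sex or feeding regime, and no allele or driver for LRE. Nothing in the labels says whether the 4 libraries of a group came from different mice, so a p-value reflects only how these libraries vary, which may be technical. Without identifiers, neither the tissue nor the knockout could be checked against marker genes or Bmal1. In bulk tissue, fewer cells of a type and less RNA per cell cannot be told apart.

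Depth was low and uneven, from 5293 to 508821 counts per library. At the median of 86032 counts, 1 count was worth 11.6 CPM. In WT ZT12 replicate 2 the 10 largest rows of the table held 37.8% of counts, in WT ZT20 replicate 4 they held 54.0%, and KO ZT16 replicate 1 had only 5293 counts. All WT libraries of ZT16 also stood apart. They had a count in 13126 to 18019 rows, while the other WT libraries had counts in 7483 to 12940. The headers give each library a position of a letter and a number, all under 1 plate name. WT libraries had position number 1 at ZT0 to ZT12 and 2 at ZT16 and ZT20, LRE number 2 at ZT0 and ZT4 and 3 later, and KO 4 and 5. Position and genotype therefore cannot be told apart between KO and WT.

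Outside ZT16 the members took up about 3 times as large a share of a WT library as of an LRE or KO one, which is what the rule asked for and is given as a description with no test. In the 20 WT libraries their share of all counts ran from 0.319% to 4.27% with a median of 3.16%. In LRE it ran from 0.427% to 1.55% (median 1.05%, 20 libraries) and in KO from 0.556% to 1.86% (median 1.02%, 20 libraries). The WT range was separate from those of LRE and KO but for 2 WT libraries that stood apart. These were WT ZT20 replicate 4 at 0.319%, below every LRE and KO library outside ZT16, and WT ZT12 replicate 2 at 1.81%, just under the highest KO library. Over the counts that lay outside the 10 largest rows, WT ZT20 replicate 4 still had only 0.694% on the members, and WT ZT12 replicate 2 had 2.91%.

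**Figure D1:**
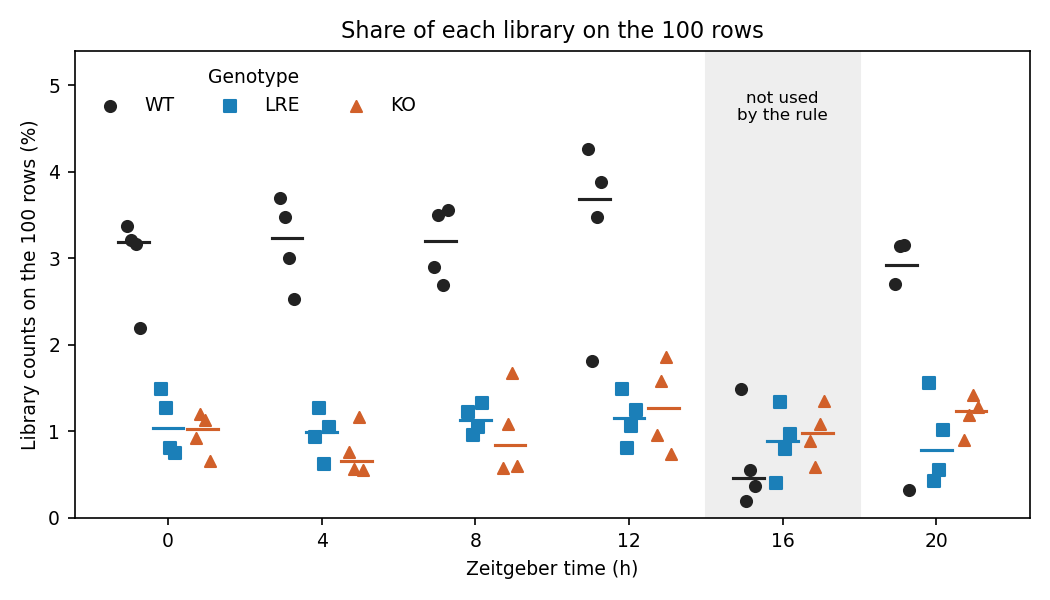
Percent of each library's counts that fell on the 100 members, by zeitgeber time (h) and genotype, with 1 point per library and a bar at the median of 4. WT points lie at 1.81% or above outside ZT16 except ZT20 replicate 4 (0.319%), and at ZT16 they lie at 1.49, 0.199, 0.550 and 0.370%.

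The typical member had a median of 109 CPM in WT, 34.0 CPM in LRE and 32.7 CPM in KO. The typical feature of all 8485 had 35.9, 35.3 and 36.6 CPM, so the members as a group had about 3 times the typical level in WT and about the typical level in LRE and KO. CPM is a share of counts, and row lengths are not known, so these are not levels per length. The depth behind the members was low, and in LRE and KO near that of all features. The median member had a median of 10 counts per library in WT, 3.5 in LRE and 2.5 in KO. For all features these were 4, 3.5 and 3. The median was 3 counts or fewer for 5 members in WT (44.2% of all features), 49 in LRE (46.4%) and 58 in KO (58.1%). A count was present in all 60 libraries for 29 of the 100 (25% of all features). The rule used the same libraries and asked for a high WT level.

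The difference that chose the members ran from 0.98 to 2.81 on the log2(CPM + 10) scale, with a median of 1.21, and was at least 1 for 97 of the 100. At the edge of the list, members 98, 99 and 100 stood at 1.00, 0.99 and 0.98. The next 3 features all stood at 0.98, with medians in WT, LRE and KO of 247, 110.2 and 120.0 CPM for the nearest, 68.0, 29.6 and 27.7 for the next and 141, 66.8 and 52.3 for the third. The list therefore has no natural end, and features just outside it had the same pattern.

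Member 1 showed the widest gap. In WT outside ZT16 it ran from 15.7 to 1561 CPM with a median of 691, in LRE from 8.25 to 216 CPM with a median of 60.9 and in KO from 0 to 181 CPM with a median of 89.6. The rule value of 2.81 corresponds to a 7.03-fold difference in CPM + 10. In WT ZT20 it stood at 424, 668, 792 and 15.7 CPM in replicates 1 to 4, so replicate 4 alone overlapped LRE and KO, and the lowest of the other 19 WT libraries, at 424 CPM, was above every LRE and KO library.

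Member 2 was less abundant and had the same shape. It ran from 5.24 to 422 CPM with a median of 179 in WT, from 0 to 72.4 CPM with a median of 21.0 in LRE and from 0 to 84.4 CPM with a median of 22.7 in KO. Member 4 ran from 20.9 to 718 CPM with a median of 327 in WT, from 0 to 119 CPM with a median of 63.8 in LRE and from 0 to 113 CPM with a median of 48.6 in KO. For both, 19 of 20 WT libraries lay above all 40 LRE and KO libraries, and the exception was again WT ZT20 replicate 4.

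Member 5 had the highest WT median of all members. It ran from 15.7 to 9832 CPM with a median of 4069 in WT, from 156 to 2280.0 CPM with a median of 788 in LRE and from 276 to 2163 CPM with a median of 931 in KO. Its WT level was highest at ZT12, at 9653, 2999, 6021 and 9832 CPM, and the lowest WT library was ZT20 replicate 4, at 15.7 CPM. Without that library, all WT libraries outside ZT16 lay above all LRE and KO libraries, as for members 1, 2 and 4. No member had all 20 WT libraries above all 40 others, and neither did any of the 8485 features (0%).

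**Figure D2:**
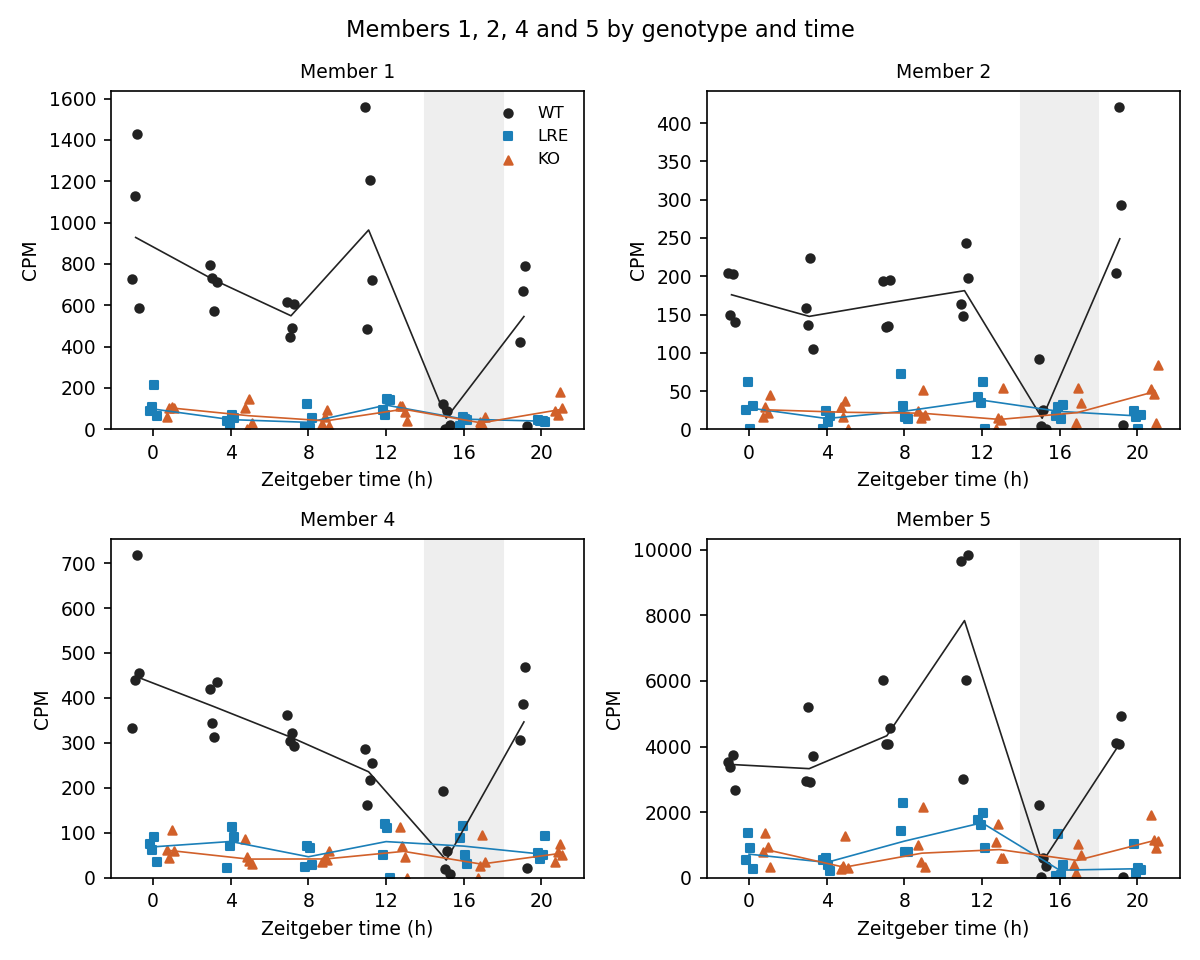
CPM of members 1, 2, 4 and 5 against zeitgeber time (h), with 1 point per library and lines through the medians of 4, on linear axes. Outside ZT16 (shaded) all WT points but ZT20 replicate 4 lie above all LRE and KO points, while at ZT16 the WT points of member 1 lie at 122, 1.97, 86.7 and 21.2 CPM.

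Members 21 and 9 had the next highest WT medians. Member 21 ran from 15.7 to 2925 CPM with a median of 2085 in WT, from 172 to 1043 CPM with a median of 702 in LRE and from 94.1 to 939 CPM with a median of 540.0 in KO. Member 9 ran from 31.4 to 1833 CPM with a median of 1464 in WT, from 79.7 to 641 CPM with a median of 313 in LRE and from 60.9 to 711 CPM with a median of 370.2 in KO. In both, the 2 lowest WT libraries were ZT20 replicate 4 and then ZT12 replicate 2, with member 9 at 31.4 and 594 CPM. A few abundant members carried much of the shared signal. The 10 members with the highest WT medians held a median of 48.5% of all member counts in WT, 43.4% in LRE and 43.6% in KO. Without member 5, the list still took a median of 2.77% of counts in WT, 0.982% in LRE and 0.943% in KO.

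The gap was present at each of the 5 times the rule used. At ZT0, ZT4, ZT8, ZT12 and ZT20 in turn, the group median in WT lay above both others for 96, 99, 96, 98 and 90 members. Over all 8485 features the same order was seen for 33.1%, 36.3%, 33.6%, 31% and 30%. All 4 WT libraries lay above all 8 others for 29 members at ZT0 (0.919% of all features), 51 at ZT4 (1.65%), 29 at ZT8 (1.38%), 20 at ZT12 (0.53%) and 1, member 20, at ZT20 (0.224%). Nothing is read from these shares, since the rule used the same libraries. At ZT20 the low count came with replicate 4, whose member share was 0.319% while replicates 1 to 3 had 2.70%, 3.14% and 3.16%.

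By time, the median over members in WT stood at 119.7, 128, 119, 120.4 and 91.5 CPM for ZT0, ZT4, ZT8, ZT12 and ZT20 in turn. For the same times LRE had 51.2, 37.9, 43.9, 38.1 and 32.2 CPM, and KO 41.0, 30.8, 34.8, 41.7 and 48.9 CPM. The 2 series crossed, with LRE above KO at ZT0, ZT4 and ZT8 and below it at ZT12 and ZT20. Over all 8485 features LRE had 40.2, 38.4, 36.2, 33.9 and 36.2 CPM and KO 38.0, 38.4, 40.9, 37.6 and 37.5 CPM. The order at ZT0, ZT12 and ZT20 was thus shared by all features, while that at ZT8 was the reverse. Position number 2 held WT at ZT20 and LRE at ZT0 and ZT4. Among these, which the rule also used, the member share was 0.319% to 3.16% (median 2.92%) in the 4 WT libraries and 0.625% to 1.49% (median 0.996%) in the 8 LRE libraries. These libraries differ in time as well as genotype.

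**Figure D3:**
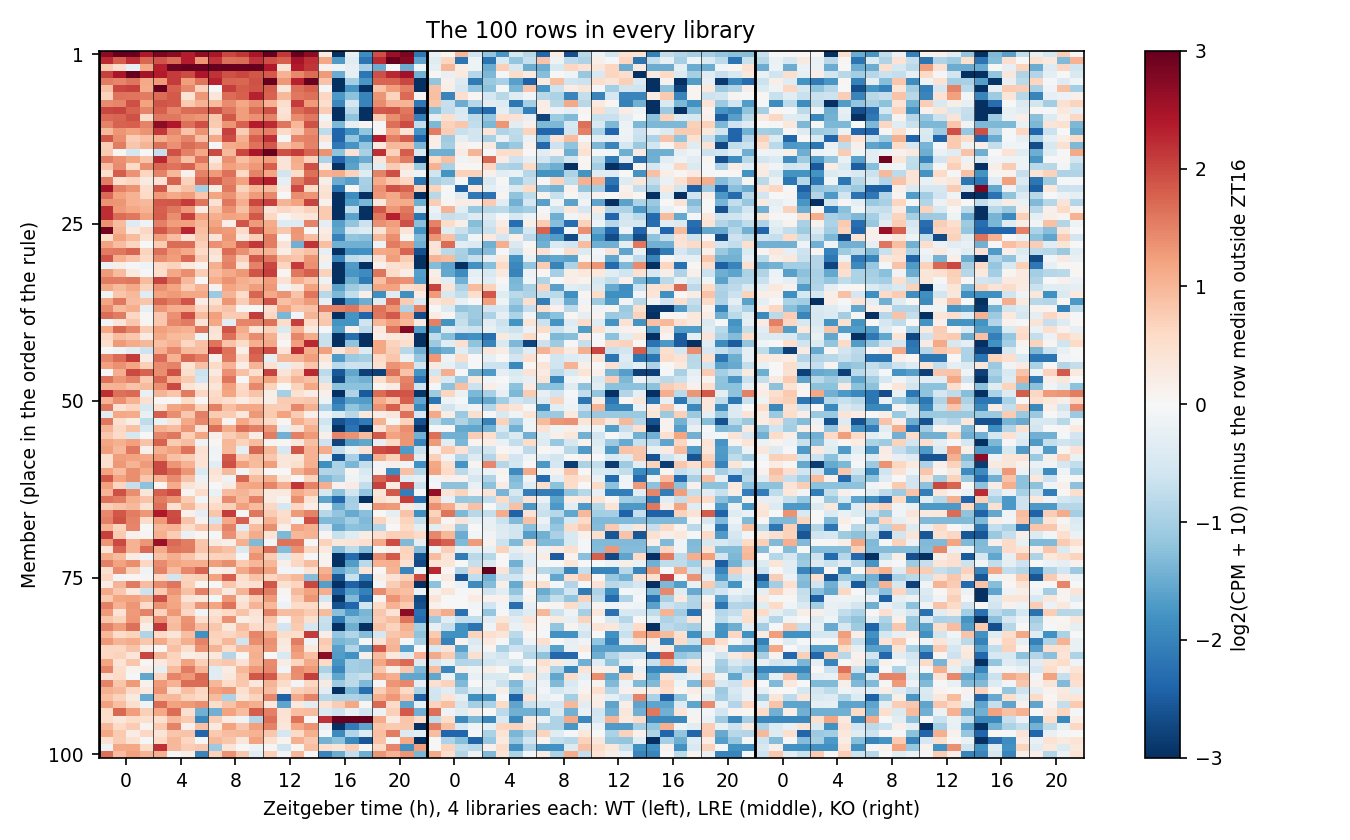
The 100 members (from top to bottom in the order of the rule) in all 72 libraries, as log2(CPM + 10) minus the member's median over the 60 libraries outside ZT16, with colours ending at -3 and 3. WT columns at ZT0 to ZT12 and ZT20 are mostly red, and the WT columns of ZT16 and of ZT20 replicate 4 are mostly blue, like most LRE and KO columns.

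ZT16 was the one time the rule left out, and its WT libraries were already known to stand apart. Its 12 libraries entered neither the choice of members nor the filter that gave the 8485 features. Because the WT libraries stood apart, the libraries of ZT16 are still not an even-handed test of the members. At ZT16 the members were not higher in WT as a group. Their share of counts was 1.49, 0.199, 0.550 and 0.370% in WT replicates 1 to 4, 0.402, 1.34, 0.793 and 0.972% in LRE and 0.888, 0.585, 1.08 and 1.36% in KO. Of the WT libraries, only replicate 1 lay above LRE and KO, while replicates 2 and 4 were lower than every LRE and KO library. The median member fell to 23.4 CPM in WT, beside 40.3 in LRE and 30.8 in KO, while the median over all 8485 features was 34.0 CPM in WT. The WT group median lay above both others for 17 members (32.4% of all features) and below both for 63 (46.4%).

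Members 5 and 21, the most abundant in WT, showed this. At ZT16 member 5 had 2222, 11.8, 591 and 352 CPM in WT, 53.6, 1329.7, 90.4 and 376 in LRE and 378, 149, 1042 and 684 in KO. Member 21 had 1218, 7.86, 237 and 8.49 CPM in WT, 35.8, 694, 103.3 and 580.2 in LRE and 0, 185, 379 and 661 in KO. In both, WT replicate 1 was the highest of the 12 libraries and replicate 2 fell below nearly all others. In LRE, replicates 2 and 4 were high and replicates 1 and 3 low for both members, so spread within LRE was also shared between these 2 members. The WT libraries of ZT16 had 80.2, 57.4, 62.3 and 64.3% of their counts on the 8485 features, while WT ZT20 replicates 1 to 3 had 93.1%, 95.6% and 95.3%. At ZT16 LRE had 78.7, 92.1, 82.1 and 90.2% and KO 86.5, 81.1, 91.1 and 93.7%. Outside ZT16 this share ran from 82.5% to 97.7% in LRE and from 81.2% to 97.3% in KO. The lowest of these, LRE ZT20 replicate 3 and KO ZT8 replicate 1, had 0.551% and 0.572% of counts on the members. In WT outside ZT16 it ran from 90.3% to 96.8%, apart from ZT12 replicate 2 (77.0%) and ZT20 replicate 4 (62.4%). The part of this share in the members' levels, at ZT16 or at the other times, was not tested.

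KO and WT were compared at ZT16 by the edgeR quasi-likelihood test, with Benjamini-Hochberg adjustment over all 8485 features and an adjusted p threshold of 0.05. Of the members, 7 were lower in KO (16.5% of all features) and 9 were higher (9.96%). The median log2 fold change of members was 0.58, beside -0.03 for all features, and 70 of 100 lay above 0 (49% of all features). The same comparison for LRE gave 4 members lower (16.4% of all features) and 2 higher (7.17%), with a median of 0.46 beside -0.09 for all features and 62 of 100 above 0 (47.1%). Both comparisons use the same WT libraries. Members 37, 93 and 95 were lower in both, 3 of 100 (13.1% of all features).

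Single libraries decided most of these counts. The number of members higher in KO was 26 without WT ZT16 replicate 1 (13.4% of all features), 1 without WT replicate 2 (4.83%), 4 without WT replicate 4 (8.93%), 5 without KO replicate 3 (6.92%) and 4 without KO replicate 4 (5.93%). The number lower in KO was 2 without KO replicate 2 (14.6% of all features) and 4 without KO replicate 4 (13.4%). Higher in LRE were 18 without WT replicate 1 (11.0% of all features), 1 without WT replicate 2 (2.75%), 4 without LRE replicate 1 (6.53%) and 4 without LRE replicate 2 (6.06%). The share of all features moved in the same direction in most of these fits. Without LRE replicate 1 or 2 it fell from 7.17%, while the members higher in LRE rose from 2. Scaling moved both as well. The median of all features for KO moved from -0.03 to -0.43 with RLE scaling, where 8 members were lower (24.2% of all features) and 3 higher (5.50%), and to 0.26 with upper-quartile scaling, where 4 were lower (12.5%) and 18 higher (15%). For LRE it moved from -0.09 to -0.37 with RLE, where 6 members were lower (21.8% of all features) and 2 higher (4.73%), and to 0.28 with upper-quartile scaling, where 3 were lower (11.6%) and 12 higher (13.4%). The median of the members stayed above that of all features, at 0.22 with RLE and 0.87 with upper-quartile scaling for KO and at 0.20 and 0.80 for LRE.

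**Figure D4:**
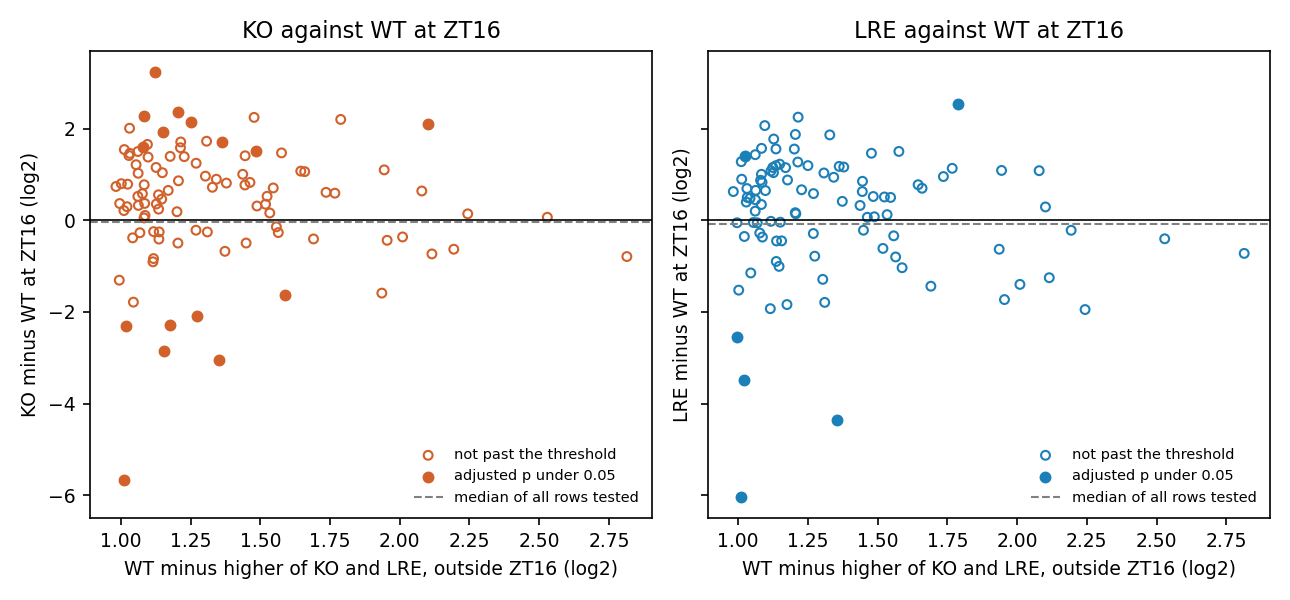
Fitted log2 fold change at ZT16 of KO against WT (left) and LRE against WT (right) for each member, against its rule value outside ZT16 (log2), with filled points past the adjusted p threshold of 0.05 and a dashed line at the median of all 8485 features. For KO, 70 of 100 members lie above 0, 7 filled points lie below 0 and 9 above. For LRE, 62 lie above 0, with 4 filled points below and 2 above.

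Member 95 had the smallest p in both comparisons at ZT16. Its WT libraries had 162, 469.7, 577 and 416 CPM, those of LRE 0, 0, 0 and 31.4 and those of KO 0, 0, 13.5 and 23.2. All 4 WT libraries were above all 8 others. The log2 fold change was -5.67 ± 0.74 (SE, edgeR adjusted p = 9.03e-09) for KO and -6.03 ± 0.77 (SE, edgeR adjusted p = 5.90e-09) for LRE. At the 5 other times its highest WT library had 109.5 CPM, so the level in WT was highest at ZT16, where most members were low. Member 37 was the only other member whose 4 WT libraries lay above all 8 others at ZT16 (5.86% of all features did so). It had 203, 200.5, 217 and 157 CPM in WT, 0, 0, 12.9 and 31.4 in LRE and 0, 17.6, 40.6 and 46.4 in KO, with log2 fold changes of -3.05 ± 0.54 (SE, edgeR adjusted p = 7.63e-06) and -4.37 ± 0.64 (SE, edgeR adjusted p = 1.55e-07) in KO and LRE. A value of 0 in KO ZT16 replicate 1 says little, since 3 counts there are worth 567 CPM, and the limit that a count of 0 allows is 53.6, 86.7, 38.8 and 47.0 CPM in the 4 LRE libraries, for counting error only. The calls of members 95 and 37 held without any 1 of the 8 libraries in each comparison.

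Member 93 was low in every group. At ZT16 it had 30.4, 41.3, 57.0 and 21.2 CPM in WT, 0, 0, 12.9 and 0 in LRE and 0, 8.79, 0 and 23.2 in KO, and the WT range overlapped that of KO. The log2 fold change was -2.32 ± 0.80 (SE, edgeR adjusted p = 0.0245) for KO and -3.49 ± 1.00 (SE, edgeR adjusted p = 0.00645) for LRE. The KO call was lost without WT replicate 2 (adjusted p = 0.0623), WT replicate 3 (0.0658), KO replicate 2 (0.0758) or KO replicate 3 (0.106), and with upper-quartile scaling (0.0519). The LRE call of member 99, the other member lower there, had an edgeR adjusted p of 0.0498, and it was lost in 5 of the 8 fits without a library.

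Member 76 had the smallest p among the members higher in KO. At ZT16 it had 91.3, 11.8, 50.2 and 38.2 CPM in WT and 567, 123, 325 and 417 in KO, and the ranges did not overlap. The log2 fold change was 2.26 ± 0.65 (SE, edgeR adjusted p = 0.00573). At ZT0 it had 364, 643, 934 and 596 CPM in WT and 77.4, 148, 448 and 119 in KO, where WT had the higher median and the ranges overlapped. Its value of 567 CPM in KO replicate 1 rests on 3 counts. The call held without any 1 library of the 8.

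Member 91 had the smallest p among the members higher in LRE. At ZT16 it had 411, 520.3, 362 and 408 CPM in LRE and 274, 31.4, 130.1 and 63.7 in WT, again without overlap. The log2 fold change was 1.41 ± 0.36 (SE, edgeR adjusted p = 0.00187), and it did not pass in a fit of only the 2 groups (adjusted p = 0.0596). At ZT0 the order was the reverse, with 735, 693, 529 and 429.7 CPM in WT and 229, 277, 182 and 255 in LRE. The KO libraries of ZT16 had 567, 361, 149 and 220.2 CPM, overlapping both. Member 12, the other member higher in LRE, had an edgeR adjusted p of 0.0199, which was lost in 4 of the 8 fits without a library.

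The members with the largest p at ZT16 were 2 and 77 for KO and 85 and 69 for LRE. Member 2 had 91.3, 3.93, 25.1 and 0 CPM in WT and 0, 8.79, 54.1 and 34.8 in KO, and member 77 had 335, 19.7, 41.1 and 29.7 and 0, 44.0, 135 and 174. Member 85 had 40.6, 0, 6.85 and 0 CPM in WT and 17.9, 28.9, 0 and 0 in LRE, and member 69 had 50.7, 27.5, 36.5 and 59.4 and 71.5, 57.8, 64.6 and 47.0. In all 4 pairs the groups overlapped.

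LRE and KO were compared with each other next, to see where members that were low in both still differed. The rule favours features in which the 2 lie near each other, so few calls are not a sign of likeness. Averaged over the 5 times, edgeR called 0 of 100 members (0% of all features), and 4 had an unadjusted p under 0.05 (8.18% of all features). DESeq2 and limma-voom also called 0. The median log2 difference of LRE minus KO was 0.02, with a range of -1.07 to 0.94. Member 85 had the smallest p, at -1.07 ± 0.50 (SE, edgeR adjusted p = 0.590). In LRE at ZT12 it was at 0 in all 4 libraries, while KO had 0, 42.7, 11.7 and 26.9 CPM, which are 0 to 3 counts a library. Member 81 came next, at 0.41 ± 0.20 (SE, edgeR adjusted p = 0.598).

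At ZT8, edgeR called 0 members (1.46% of all features), with 10 at an unadjusted p under 0.05 (16.2%), and DESeq2 and limma-voom called 0. The member with the smallest p was 16, which had 169, 134, 173 and 263 CPM in LRE and 205, 1966, 335 and 151 in KO. One KO library was far above the others, and the difference was -1.83 ± 0.55 (SE, edgeR adjusted p = 0.0624). Without KO ZT8 replicate 2, the high library, it was -0.36, and without KO replicate 3 it was -2.06 and passed (edgeR adjusted p = 0.0298), the 1 member called there (3.69% of all features). Member 59 had 12.1, 41.1, 0 and 27.7 CPM in LRE and 24.1, 173, 102 and 78.6 in KO, with a difference of -2.21 ± 0.71 (SE, edgeR adjusted p = 0.0810).

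At ZT20, edgeR called 0 members (1.06% of all features), with 6 at an unadjusted p under 0.05 (11.7%), and DESeq2 and limma-voom called 0. The median difference of members was -0.32, beside 0.08 for all features, and 34 of 100 lay above 0 (54.6%). Member 42 had 93.7, 24.7, 12.7 and 46.5 CPM in LRE and 193, 126, 74.2 and 186 in KO, with a difference of -1.55 ± 0.61 (SE, edgeR adjusted p = 0.251). Member 1 had 46.8, 41.1, 38.2 and 37.2 CPM in LRE and 87.8, 68.8, 181 and 101.3 in KO. These did not overlap, and the difference was -1.31 ± 0.61 (SE, edgeR adjusted p = 0.377). At ZT16, edgeR called 0 members (0% of all features), with 4 at an unadjusted p under 0.05 (3.68%), and DESeq2 and limma-voom called 0.

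Time of day within a genotype was not used by the rule, but the rhythm tests used the same libraries whose levels chose the members. A 24 h cosine curve was fitted to each genotype over the 60 libraries outside ZT16, with edgeR and adjustment over the 8485 features. In WT 3 members were rhythmic (1.13% of all features), in LRE 13 (4.84%) and in KO 3 (2.37%). The median amplitude of members, which is how far the fitted peak rises over the mean (log2), was 0.45 in WT, beside 0.39 for all features. For LRE the 2 values were 0.53 and 0.39, and for KO 0.52 and 0.44. Position number runs with time in each genotype, and its part in these counts was not tested. With the ZT16 libraries included, 67 members were rhythmic in WT (33.5% of all features), 4 in LRE (1.65%) and 1 in KO (0.46%).

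Member 3 had the strongest rhythm in WT. Its 4 WT libraries had 37.9, 30.6, 13.8 and 52.6 CPM at ZT0, 130.1, 201, 300.2 and 261 at ZT4 and 321, 330.3, 355 and 445 at ZT8. They had 137, 27.02, 136 and 113 CPM at ZT12, 20.3, 15.7, 13.7 and 4.25 at ZT16 and 0, 17.6, 0 and 15.7 at ZT20. The level was high at ZT4 and ZT8 and no more than 20.3 CPM at ZT16 and ZT20, and all 4 libraries of ZT8 were above all those of other times. The fit gave amplitude 2.57 (log2), fitted peak at ZT7.13, edgeR adjusted p = 1.52e-10, and a ratio of fitted peak to trough of 35.0. In LRE no library was above 46.2 CPM and in KO none was above 56.6 CPM at any time, so WT exceeded both at ZT4 and ZT8 and overlapped them at ZT20. The rhythm of member 3 differed between KO and WT (edgeR adjusted p = 0.00522), a call lost without KO ZT20 replicate 3 (0.109). It also differed between LRE and WT (edgeR adjusted p = 0.00394), in every fit without 1 library. The rule chose members that were low in LRE and KO. Outside ZT16 member 3 had a median of 2 counts per library in LRE and 1 in KO, at which a rhythm is hard to measure.

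Member 15 was highest in WT at ZT8 and ZT12. It had 37.9, 19.1, 9.20 and 17.5 CPM at ZT0, 100.4, 44.6, 102 and 141 at ZT8, 288, 94.6, 108 and 84.9 at ZT12 and 117, 35.1, 88.0 and 10.5 at ZT20. All libraries of ZT0 were below all those of ZT8 and ZT12, while ZT20 was spread out. The fit gave amplitude 1.13 (log2), fitted peak at ZT11.9, edgeR adjusted p = 0.00250. Without WT ZT12 replicate 1, the highest library, the adjusted p was 0.0538. In LRE it stayed at or below 46.0 CPM and in KO at or below 50.6 CPM outside ZT16.

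Member 43 was the only member rhythmic in both WT and LRE (0.271% of all features were). In WT it had 60.6, 53.6, 46.0 and 35.1 CPM at ZT0, 288, 205, 67.7 and 239 at ZT8 and 260.1, 81.0, 312 and 141 at ZT12. In LRE it had 12.7, 15.4, 45.5 and 30.7 CPM at ZT0, 133, 102.7, 74.3 and 139 at ZT8 and 270.1, 34.1, 36.8 and 236 at ZT12. Both genotypes had their lowest group median at ZT0, and 2 of 4 LRE libraries at ZT12 reached the WT range. The fits gave amplitude 0.98 (log2), fitted peak at ZT9.64, edgeR adjusted p = 0.00463 in WT, and amplitude 1.13 (log2), fitted peak at ZT11.0, edgeR adjusted p = 0.00245 in LRE. In KO it had 30.95, 14.8, 0 and 74.2 CPM at ZT0 and 60.2, 72.3, 142 and 6.05 at ZT8, and the edgeR adjusted p was 0.431.

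**Figure D5:**
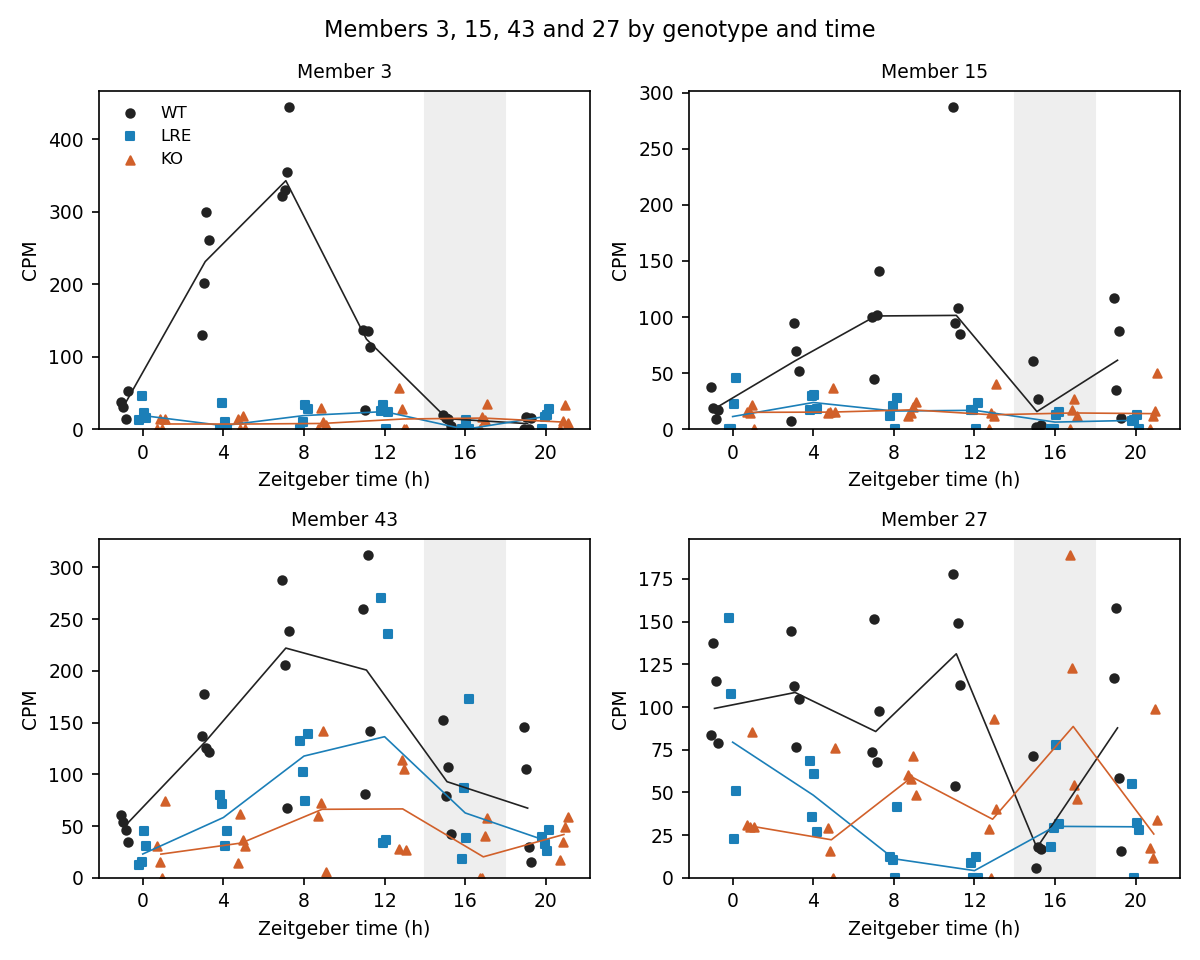
CPM of members 3, 15, 43 and 27 against zeitgeber time (h), with 1 point per library and lines through the medians of 4. Member 3 rises only in WT, to 445 CPM at ZT8, member 15 is highest in WT at ZT8 and ZT12, member 43 rises in WT and LRE, and member 27 falls in LRE from ZT0 to ZT12.

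In LRE, 8 of the 13 rhythmic members had their fitted peak between ZT0 and ZT4 (0.813% of all features). Another 3 lay between ZT20 and ZT24 (2.78%) and the other 2, members 43 and 53, between ZT8 and ZT12 (0.966%). Of the 411 features rhythmic in LRE, 69, 236 and 82 had their peak in these ranges in turn. The edge at ZT0 splits neighbouring peaks. Between ZT22 and ZT3 lay 11 of the 13 members and 263 of the 411 features (3.1% of all features). The difference between these distributions was not tested. Member 74 had the smallest p (amplitude 2.81 (log2), fitted peak at ZT2.26, edgeR adjusted p = 0.000250). It had 178, 30.8, 11.4 and 51.1 CPM at ZT0, 541, 41.7, 10.2 and 36.1 at ZT4, 12.1, 10.3, 0 and 13.9 at ZT8 and 0, 0, 12.3 and 0 at ZT12. Replicate 1 was the highest at both ZT0 and ZT4, and the call held without either library. Member 27 had 152, 108, 22.8 and 51.1 CPM at ZT0, 68.3, 35.7, 61.1 and 27.1 at ZT4, 12.1, 10.3, 0 and 41.6 at ZT8 and 8.44, 0, 12.3 and 0 at ZT12, and its fit gave amplitude 1.74 (log2), fitted peak at ZT0.767, edgeR adjusted p = 0.00541. Levels fell toward ZT12, where 2 of 4 libraries were at 0. Member 53 ran the other way, with 25.4, 15.4, 22.8 and 15.3 CPM at ZT0, 109, 144, 149 and 69.3 at ZT8 and 15.6, 0, 25.5 and 18.6 at ZT20 (amplitude 1.46 (log2), fitted peak at ZT9.42, edgeR adjusted p = 0.00110). All 4 libraries of ZT8 were above all those of ZT0 and ZT20. The count of 13 fell to 6 without LRE ZT0 replicate 1 (4.24% of all features), 7 without LRE ZT0 replicate 4 (2.46%), 8 without LRE ZT8 replicate 2 (3.87%) and 8 without LRE ZT20 replicate 3 (3.36%).

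In KO, member 49 had the smallest p (amplitude 1.35 (log2), fitted peak at ZT20.4, edgeR adjusted p = 0.00245). It had 170.3, 208, 256 and 148 CPM at ZT0, 334, 46.5, 36.9 and 30.4 at ZT4 and 24.1, 14.5, 122 and 24.2 at ZT8. It had 56.6, 99.6, 81.6 and 53.8 CPM at ZT12 and 228, 367, 379 and 439 at ZT20. Levels were highest at ZT20, where 3 of 4 libraries lay above every KO library of ZT0, ZT4, ZT8 and ZT12. WT had 482, 579.7, 557 and 10.5 CPM at ZT20, and its replicates 1 to 3 still lay above all 4 KO libraries. Member 46 had 36.1, 57.8, 10.2 and 12.1 CPM at ZT8 and 52.7, 103.2, 239 and 76.0 at ZT20 (amplitude 1.76 (log2), fitted peak at ZT16.8, edgeR adjusted p = 0.0236). The fitted peak lies by ZT16, which the fit left out. At ZT16 KO had 0, 26.4, 40.6 and 116 CPM, and the mean of 45.7 was below those of ZT12 (71.0) and ZT20 (118). The call of member 46 was lost without KO ZT8 replicate 4 (adjusted p = 0.0652) or KO ZT20 replicate 3 (0.173). Without either of these libraries, 1 of the 3 members was called (0.86% and 1.05% of all features). The third member, 31, was lost in 11 of 20 fits without a library.

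Rhythms differed between KO and WT for 2 members, 3 and 79 (3.06% of all features), between LRE and WT for 2, members 3 and 96 (0.577%), and between LRE and KO for 8 (7.85%). These counts are small and each moved when 1 library was left out, so no difference from the shares of all features is read from them. The 8 were members 7, 16, 17, 22, 27, 53, 63 and 74. For KO and WT the count was 0 without KO ZT20 replicate 3 (1.69% of all features) and 1 without WT ZT20 replicate 4, KO ZT4 replicate 4, KO ZT8 replicate 1, KO ZT8 replicate 4 or KO ZT20 replicate 1 (0.46% to 1.85%). It was 4 without WT ZT4 replicate 4 (2.47%) and 5 without KO ZT8 replicate 3 (4.54%). The call of member 79 (edgeR adjusted p = 0.0298) was lost in 6 of 40 such fits and that of member 96 (0.0499) in 29 of 40. The LRE and KO count was 4 without LRE ZT8 replicate 3 (6.53% of all features) and 5 without LRE ZT0 replicate 1, LRE ZT8 replicate 2, LRE ZT12 replicate 3, KO ZT8 replicate 4 or KO ZT12 replicate 3 (5.19% to 7.99%).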

How the data were processed

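RNA of mouse eWAT was counted in 72 samples, 4 for each of 18 groups. The deposited file is a single matrix of raw counts, 32377 rows by 180 columns. Columns were matched to samples through the plate position that both name, and 108 columns matching no sample were set aside. Per the file headers, counts came from sorted, deduplicated alignments, and the submitters' processing notes name STAR 2.5.4b and the builds mm10 and GRCm38. The counter, annotation and use of strand or molecular identifiers were not given in the sources used here. Although the design text describes a cell line, samples were taken as labelled.

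The members and the lists of tests were chosen with earlier results of these data known. CPM is the count over the column total. Counts were tested on 8485 rows in R 4.3.3 with edgeR 4.0.16 (quasi-likelihood F-test, TMM scaling, Benjamini-Hochberg adjustment, adjusted p under 0.05), in a fit of 18 group means or a 24 h cosine and sine per genotype. DESeq2 1.42.0 and limma 3.58.1 (voom), other scalings and filters, and each library left out were alternatives. The tests were checked on simulated counts drawn from the pooled profile of all libraries. The simulation held no libraries that stand apart and no effect of position, so it says nothing about these limits. Standard errors are the fold change over the square root of F. Named members are numbers 1 to 5 and 98 to 100, the 3 with the highest WT medians, the 3 smallest and 2 largest p at ZT16 in each comparison with WT, and the 2 smallest p in each rhythm test and each LRE and KO comparison. Where a count or test called few members, all were named after their values were seen, and members 27 and 43 were described in the same way. The 108 pairs of libraries within groups differed by a chi-square of 1.29 to 39.5 per degree of freedom, so none was taken as 1 library.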

Additional observations from a re-analysis of the deposited data

Results flagged for a closer look

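In WT at ZT20, replicate 4 lay far from the other 3 libraries in the share of counts on the members, at 0.319%. Member 1 stood at 61.9 CPM in KO ZT0 replicate 1 and at 103.8 to 107 CPM in the other 3 KO libraries of that time, which is 4 counts beside 7, 5 and 7. These are 2 of 54 sets of 4 values examined, and chance gives about 1 in 20. Rhythms differed between genotypes by a test of the difference itself for 2 members in KO and WT (3.06% of all features), 2 in LRE and WT (0.577%) and 8 in LRE and KO (7.85%).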

How the results depend on the processing

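Counts of members past the threshold moved by over 1.5 times as follows, with the share of all features tested in parentheses. With upper-quartile scaling 4 were lower (12.5%) and 18 higher (15%) in KO than WT at ZT16, 12 were higher in LRE (13.4%), and 1 differed in rhythm between KO and WT (2.32%). With RLE scaling 3 were higher in KO (5.50%), 1 differed between LRE and KO at ZT8 (1.97%), and 1 and 4 differed in rhythm from WT in KO (3.39%) and LRE (0.766%). With filterByExpr, which tested 66 members for the groups and 64 for rhythm, 3 were lower (25.6%) and 3 higher (11.3%) in KO, 2 differed between LRE and KO at ZT8 (10.6%), and 4 differed in rhythm between LRE and WT (2.60%). With no filter 15 were higher in KO (3.97%) and 4 in LRE (3.21%), 2 differed at ZT8 (2.73%), 6, 20 and 10 were rhythmic in WT, LRE and KO (4.06, 5.59 and 4.58%), and rhythms differed from WT for 11 in KO and 9 in LRE, and for 14 from LRE to KO (6.20, 2.63 and 8.34%). With limma-voom 4 were lower (14.7%) and 26 higher (14.6%) in KO, 10 higher in LRE (10.3%), 6 rhythmic in LRE (3.42%) and 1 in KO (1.96%), and rhythms differed for 8, 1 and 4 in the same order (4.73, 0.200 and 8.53%). DESeq2 gave 5 rhythm differences between LRE and WT (1.05%). Without WT ZT12 replicate 2, WT ZT20 replicate 4 and KO ZT16 replicate 1, 4 were higher in LRE (7.51%), 1 differed at ZT8 (2.12%) and 1 differed in rhythm between KO and WT (0.318%). A fit of only the groups compared gave 5 higher in KO (5.09%), 1 in LRE (3.30%) and 3 differing at ZT8 (5.6%). With ZT16 included 67, 4 and 1 were rhythmic in WT, LRE and KO (33.5, 1.65 and 0.46%), and rhythms differed for 33, 11 and 1 (17.1, 9.84 and 3.98%). The cause was not tested.

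Same-numbered libraries did not vary together (69 of 612 pairs with r over 0.1), so the numbers do not pair them. With the replicate number as a block, 6 members were lower (16.4% of all features) and 10 higher (10.1%) in KO than WT at ZT16. In the same setting 1 differed in rhythm between LRE and WT (0.554%). In all, 20 of 72 libraries correlated best with their own number.

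Leaving out 1 library gave 2 to 6 members lower in KO at ZT16 and 1 to 26 higher. The share of all features was 14.6% at the 2, 4.83% at the 1 and 13.4% at the 26. In LRE 3 to 6 were lower and 1 to 18 higher, with 2.75% of all features at the 1 and 11.0% at the 18. Between LRE and KO at ZT8, 0 to 1 differed (3.69% of all features at the 1). Rhythmic members numbered 2 to 3 in WT, 6 to 17 in LRE (4.24% of all features at the 6) and 1 to 4 in KO (0.86% or 1.05% at the 1). Rhythm differences numbered 0 to 5 for KO and WT (1.69% and 4.54% of all features). Between LRE and WT they numbered 1 to 3 (0.271% to 0.966% at the 1). For LRE and KO they numbered 4 to 11 (6.53% at the 4). The shares printed beside these counts moved too. Where an end of a range has no share beside it, the share of all features there is not given. None of these ranges is therefore read as a trait of the members. The LRE and KO counts over 5 times, at ZT16 and at ZT20 were 0 to 0. Without 1 replicate number, the rule returned 73 to 80 of the members. It returned 45 with a count in at least 20 of 60 libraries, 69 with mean CPM before the log and 92 without the 3 libraries named above, the last 2 chosen after seeing the data. Depth limits the members, with a median of 2.5 counts per library in KO, beside 3 for all features.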

Other observations

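The order of rows in the table was not used by the rule. Of the 100 members, 17 had another member in the row before or after, in 8 runs of at most 3 rows. In the densest stretch, 7 members lay within 33 rows of the table, 18 of which passed the filter. The 7 had rule values of 1.14 to 2.01, while the other 11 had values of -0.42 to 0.25, and 3 of these were above 0. The stretch was chosen after its values were seen, so it is given with no test, and the rows carry no identifier from which a gene or position could be read.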
